A study of Homo sapiens with 12 samples.

Results

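The genes described here are 49 genes of DNA replication and S phase, measured in AC16 cells exposed to doxorubicin. They were chosen by name for their role, with earlier results of these data known. Each is a row of the deposited count table whose Ensembl identifier maps to one of the 49 symbols, of 60607 identifiers in all. All 49 passed the filter on low counts, which left 17320 genes for testing. They were sorted by role into origin licensing (5 genes), the replicative helicase and its activation (14), the replication fork (18), nucleotide supply (4), maintenance of DNA methylation (2), and cyclin E with the E2F factors (6).

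The series holds 12 RNA-seq libraries of AC16, a human line derived by fusing adult ventricular heart cells with transformed fibroblasts, labelled wild type throughout. Doxorubicin, an anthracycline, poisons topoisomerase II so that DNA breaks persist, and the study asked how cells of this line respond as exposure lengthens. Control cells were kept in DMEM (3 libraries), and the other groups received 0.1 µM doxorubicin for 2, 4 or 6 days (3 libraries each), called day 2, day 4 and day 6 below. The design text gives the longest exposure as 6 days, whereas its titles read 112 hours (48 and 96 hours for the other exposures), and every title also carries the mark of day 6. Whether cells with the shorter exposures were harvested as soon as the exposure ended is not stated. Separate cultures behind the libraries of a group are not stated in the labels. The p-values therefore set each difference only against the spread among these libraries, and that spread may be technical.

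Total counts were 14835743 to 21226441 per library, and mitochondrial transcripts took 5.51% to 8.34% of them. The labels call the cells cardiomyocytes. Of 12 cardiomyocyte markers only TTN reached a mean of 1 CPM (counts scaled to a common library size, as in all levels below) in any group, and MYL2 had 0 counts in every library. All 10 fibroblast markers exceeded 1 CPM in every group, with a summed level of 5870 to 6190 CPM in control, 8680 to 8890 at day 2, 5340 to 5980 at day 4 and 4600 to 5070 at day 6. COL1A1 and COL1A2 made up most of the control sum (means of 2582 and 1821 CPM), and the markers did not move together. From control to day 6, FAP rose from 124.8 to 189 CPM while LUM fell from 212.7 to 58.76. Markers of endothelial cells summed to at most 28.9 CPM and those of leukocytes to at most 15.2 CPM in any library. The part of these shifts in the results below was not tested.

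Cells copy their DNA once per division. Before S phase, ORC, CDC6 and CDT1 load the MCM ring onto origins (licensing), while geminin (GMNN) blocks a further round. At S phase the kinase CDC7-DBF4 and the CDKs turn the ring into the active CDC45-MCM-GINS helicase, and the polymerases, clamp and clamp loader follow it. E2F factors switch most of these genes on when cells commit to division, cyclin E with CDK2 drives that commitment, and the repressors E2F7 and E2F8 turn the program down again.

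Together the 49 genes gave 6224, 6521 and 6298 CPM in the control libraries. The sum was 5015, 4713 and 5008 CPM at day 2, then 5522, 5361 and 5239 CPM at day 4 and 5740, 5551 and 5620 CPM at day 6. Every treated library lay below every control library, and the day 2 libraries were the lowest. In bulk RNA, fewer cells in S phase and less of each transcript per cell cannot be told apart.

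At day 2, 36 of the 49 genes were lower than in control, 3 were higher and 10 did not pass the test, at a Benjamini-Hochberg adjusted p under 0.05 in edgeR's quasi-likelihood test over all tested genes. Over all 17320 genes, 47.2% were called in that comparison, 23.4% lower and 23.8% higher. The median log2 fold change of the 49 was -0.50, beside -0.01 for all genes. Called lower by at least 2-fold were 7 of the 49, beside 923 of the 17320 genes. At day 4, 31 were lower and 6 higher than control, with a median of -0.32 beside 0.00, and the background was 36.5% called, 17.7% lower and 18.8% higher. At day 6, 23 were lower and 6 higher, with a median of -0.19 beside -0.01 and a background of 43.7% called, 21.7% lower and 22% higher. These comparisons use the same 3 control libraries, and no control matched to each exposure is given. If harvest times differed, length of exposure cannot be told apart from time in culture, here or between exposures. The libraries of treated and control groups did not overlap for 41, 39 and 37 of the 49 genes at days 2, 4 and 6, beside 52.2%, 44.6% and 50.9% of all tested genes.

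Directly compared, day 6 lay above day 2 for 27 of the 49 genes and below it for 4, against a background of 42.8% called (19.8% higher and 23% lower). The median log2 difference was 0.29. With scaling by library totals it was 0.446, with 35 of the 49 higher, while 5265 of all genes were higher and 2538 lower in place of 3437 and 3977. Libraries of those groups did not overlap for 35 of the 49 genes, beside 52.8% of all tested genes. Between day 2 and day 4, 21 genes rose and 6 fell (background 34.8% called, 16.3% higher and 18.5% lower). From day 4 to day 6, 5 rose and 1 fell, where the background was 6.78% called (3.05% higher and 3.73% lower). That count of 5 became 2 without day 6 library 1 and 3 without day 6 library 2. It became 14 with scaling by library totals, which also took all genes from 528 higher and 646 lower to 1006 and 350, and 9 both with only those groups fitted and without control library 2 and day 2 library 3. Of the 4 group means, day 2 was the lowest for 28 genes, against 8 for day 4, 6 for day 6 and 7 for control, and control was the highest for 34. The means of all tested genes were not ranked in this way, so these counts have no background beside them. A test for any difference among the 4 groups called 45 of the 49, where 63.4% of all genes were called.

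**Figure D1:**
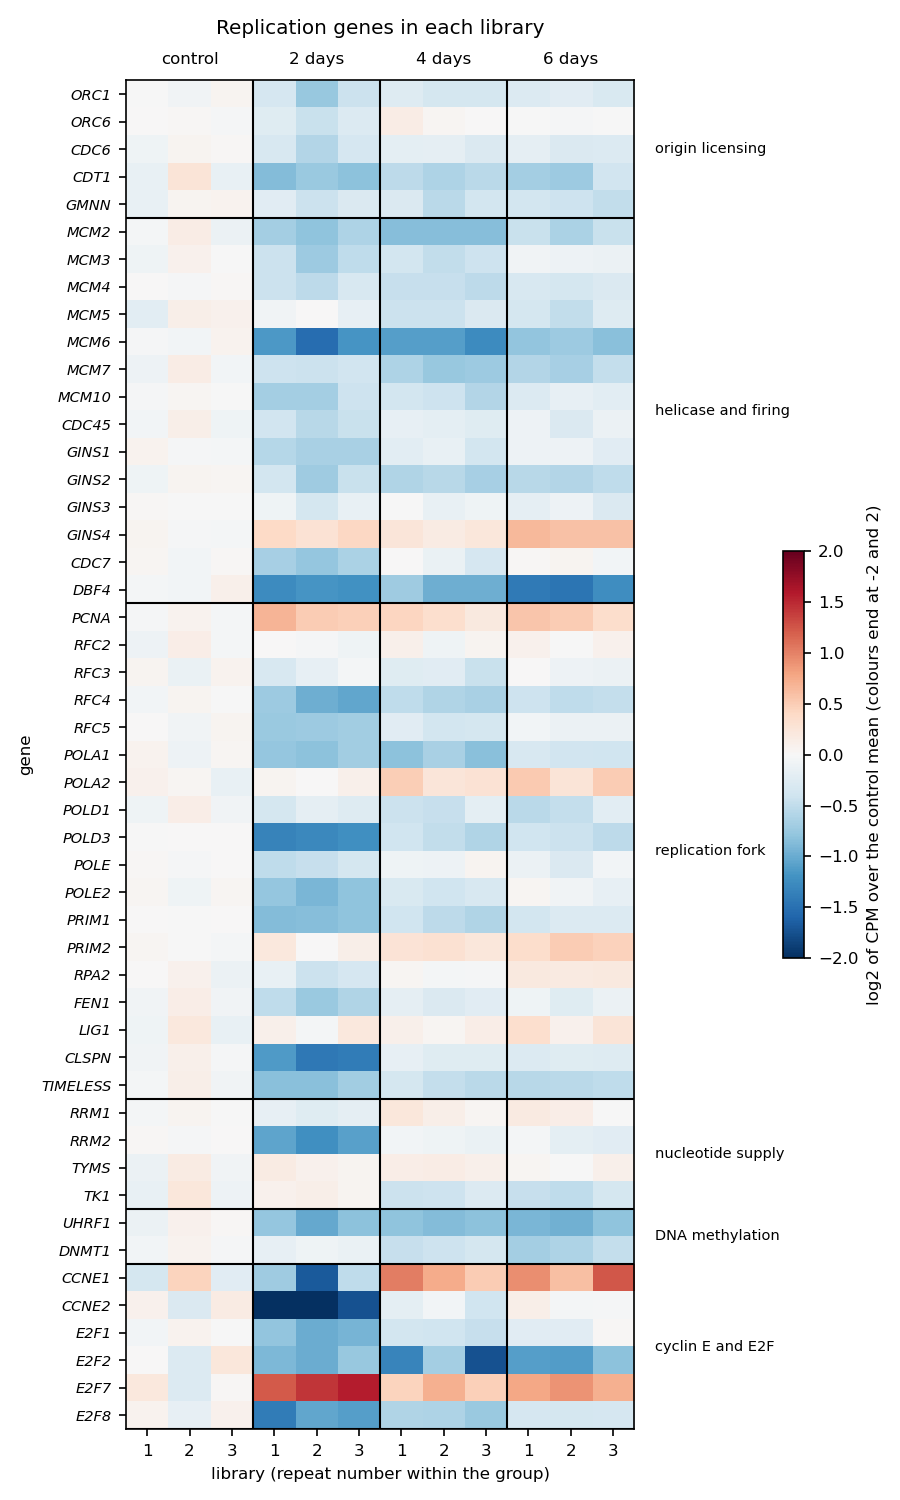
Heat map of the 49 genes (rows, by role) in the 12 libraries (columns, by group and repeat number). Colour is the log2 ratio of a library's CPM to the control mean of that gene. The 3 day 2 columns hold the deepest blue for most genes, and E2F7 stands out as red there.

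Promoters of E2F-controlled genes are known for short E2F motifs near the start, and 5 are shown to let the motifs be seen beside the direction of change. MCM6, CLSPN and E2F1 fell at day 2, and E2F7 and PCNA rose at every exposure. They were chosen after the values were seen. The sequences are RefSeq promoters on GRCh38.p14, from 250 bases before to 50 after the annotated start, all on the minus strand and printed 5′ to 3′. Capitals mark the E2F motifs TTTGGCGC and TTTCCCGC on either strand.
MCM6, chr2:135876394-135876693: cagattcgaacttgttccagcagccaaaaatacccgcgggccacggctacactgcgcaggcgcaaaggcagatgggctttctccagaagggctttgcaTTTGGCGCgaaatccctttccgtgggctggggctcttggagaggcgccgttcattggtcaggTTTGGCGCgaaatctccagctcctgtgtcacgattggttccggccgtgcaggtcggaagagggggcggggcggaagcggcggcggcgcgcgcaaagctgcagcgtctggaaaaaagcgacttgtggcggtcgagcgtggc
CLSPN, chr1:35769929-35770228: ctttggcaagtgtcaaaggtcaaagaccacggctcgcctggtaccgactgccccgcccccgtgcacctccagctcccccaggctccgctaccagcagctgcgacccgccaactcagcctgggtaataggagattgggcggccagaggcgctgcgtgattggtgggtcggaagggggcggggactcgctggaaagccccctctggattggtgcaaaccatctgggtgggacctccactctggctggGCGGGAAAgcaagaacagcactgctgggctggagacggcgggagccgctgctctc
E2F1, chr20:33686336-33686635: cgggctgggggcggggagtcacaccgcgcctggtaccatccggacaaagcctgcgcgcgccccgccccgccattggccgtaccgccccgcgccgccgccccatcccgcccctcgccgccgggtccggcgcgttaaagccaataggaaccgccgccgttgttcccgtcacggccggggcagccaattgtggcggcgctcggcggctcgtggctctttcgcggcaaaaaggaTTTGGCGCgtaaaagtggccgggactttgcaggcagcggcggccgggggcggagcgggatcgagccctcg
E2F7, chr12:77065520-77065819: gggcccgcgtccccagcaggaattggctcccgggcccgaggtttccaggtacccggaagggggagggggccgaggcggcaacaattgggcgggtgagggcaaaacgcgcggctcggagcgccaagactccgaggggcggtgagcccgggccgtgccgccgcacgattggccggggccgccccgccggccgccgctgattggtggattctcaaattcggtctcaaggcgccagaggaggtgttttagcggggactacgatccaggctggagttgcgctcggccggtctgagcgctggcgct
PCNA, chr20:5126573-5126872 (the upstream of its promoters in the table): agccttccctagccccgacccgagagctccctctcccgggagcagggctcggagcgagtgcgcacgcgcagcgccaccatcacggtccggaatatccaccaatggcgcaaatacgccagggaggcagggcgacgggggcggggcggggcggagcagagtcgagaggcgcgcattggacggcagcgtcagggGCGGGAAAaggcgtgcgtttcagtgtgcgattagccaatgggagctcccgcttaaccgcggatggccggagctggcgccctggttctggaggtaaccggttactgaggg
Of the E2F motif only the 2 forms named above were searched, so any other form is neither capitalised nor counted. MCM6 held 2 matches, starting 152 and 90 bases before the annotated start. E2F1 held 1, starting 20 bases before it, and CLSPN 1, starting 5 bases before it, where the match on the reverse strand overlaps a GGGCGG. E2F7 held none, and the upstream PCNA promoter held 1, starting 59 bases before its start. The other PCNA promoter in the table (20:5119909-5120208), not printed, held none.

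RefSeq promoters were matched for 42 of the 49 genes, 55 promoters in all. GINS4, CCNE2, E2F8, MCM4, MCM5, POLD3 and RPA2 had no promoter there and are missing from the counts below. CCNE2 among them had the deepest fall of the 49. Either E2F motif lay in a promoter of 21 of the 42 genes, beside 2.27% of the 35116 promoters in the table. The first, TTTGGCGC, was in 9 genes (21.4%, beside 0.652%), namely CDC6, GMNN, MCM6, GINS1, POLA1, POLE, POLE2, E2F1 and E2F2. The second, TTTCCCGC, was in 12 (28.6%, beside 1.63%), PCNA, LIG1 and TYMS among them. The gene shares count a gene with several promoters once, and the table shares count each promoter. Of the 31 matched genes that were lower at day 2, 16 had either motif, as had 5 of the other 11. TTTGGCGC was in 9 of those 31 and in 0 of the 11, and TTTCCCGC in 7 of the 31 and in 5 of the 11. For other motifs, the CCAAT box was in 24 genes (57.1%, beside 34.6%), GGGCGG in 31 (73.8%, beside 45.0%) and TTTGAA in 2 (4.76%, beside 15.2%). A match is a run of letters and not a measured site. A gene without a match may hold a form of the E2F motif that was not searched.

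**Figure D2:**
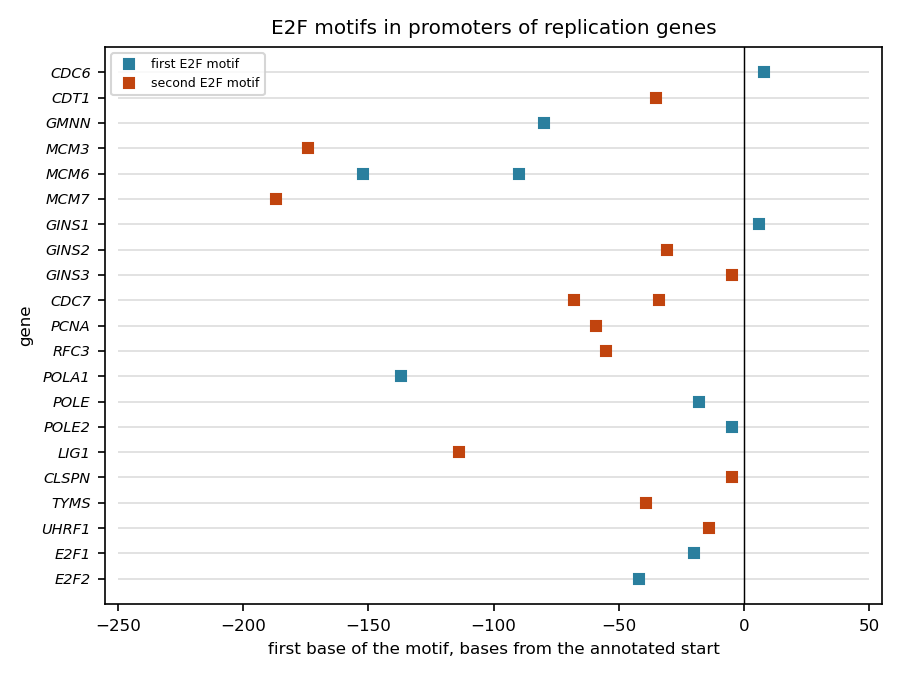
Position of each E2F motif match (squares, first base of the match in bases from the annotated start) in the promoters of the 21 genes that held one. The first motif is TTTGGCGC and the second TTTCCCGC. MCM6 is marked at 152 and 90 bases before its start.

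Licensing genes were mostly lower at each exposure. All 5 fell at day 2 (median log2 fold change -0.41), and 4 of 5 were lower at day 4 and at day 6. Of all tested genes, 23.4%, 17.7% and 21.7% were lower at days 2, 4 and 6. CDT1 (16:88803213-88809258, GRCh38), the MCM loader, stood at 48.7, 64.5 and 49.01 CPM in control, 29.7, 32.2 and 30.8 at day 2, 37.4, 35.3 and 37.2 at day 4, and 33.8, 32.8 and 41.3 at day 6. Control library 2 was the highest, and no treated library reached any control library. The log2 fold changes were -0.81 ± 0.11 (SE; adjusted p = 1.22e-06), -0.56 ± 0.11 (adjusted p = 0.00021) and -0.58 ± 0.11 (adjusted p = 9.06e-05). ORC1, the ATPase subunit of the origin recognition complex, was at 48.7, 46.7 and 50.9 CPM in control and 38.5, 28.96 and 36.4 at day 2. It was at 41.0, 38.0 and 38.2 CPM at day 4 and 40.3, 41.7 and 39.4 at day 6. Its fall was -0.49 ± 0.097 at day 2, -0.32 at day 4 and -0.27 at day 6 (adjusted p = 0.000168, 0.0104 and 0.0243), with treated and control libraries apart throughout. The day 6 call was lost without control library 3 (adjusted p = 0.086), day 6 library 1 (0.0636) or day 6 library 3 (0.0735).

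The other licensing genes took different courses. CDC6, which recruits the MCM ring with CDT1, had log2 fold changes of -0.41, -0.22 and -0.24 at days 2, 4 and 6. GMNN, the licensing inhibitor, had -0.31, -0.39 and -0.43. Both calls of CDC6 at day 4 (adjusted p = 0.0334) and day 6 (0.0171) were lost without control library 3 (0.0954 and 0.0544), without library 2 of the exposure (0.0543 and 0.0686) or without its library 3 (0.125 and 0.056). At day 4 CDC6 was also lost without control library 2 (0.0679) or day 4 library 1 (0.066), and GMNN at day 2 without day 2 library 2 (0.0534). ORC6 averaged 94.9 ± 1.7 CPM (SD, n = 3) in control, 76.2 ± 5.9 at day 2, 99.3 ± 5.2 at day 4 and 94.0 ± 0.56 at day 6. It fell at day 2 (-0.32, adjusted p = 0.0017), and its level at day 6 was higher than at day 2 (0.30, adjusted p = 0.00285).

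The MCM ring subunits fell to different extents. MCM6 (2:135839626-135876426), whose promoter is printed above, was at 168, 164 and 179 CPM in control, 76.5, 59.1 and 75.6 at day 2, 79.5, 79.7 and 71.3 at day 4, and 98.9, 103 and 95.6 at day 6. All 9 treated libraries lay far under the controls, and those of day 6 lay above those of day 2 and day 4. Its log2 fold changes were -1.27 ± 0.091, -1.15 ± 0.090 and -0.78 ± 0.089 (adjusted p = 2.24e-11, 2.37e-10 and 1.04e-07). The rise from day 4 to day 6 (0.37, adjusted p = 0.0132) did not pass without day 4 library 3 (0.0777), day 6 library 1 (0.0509) or day 6 library 2 (0.0723).

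MCM2 had log2 fold changes of -0.70, -0.85 and -0.50 at days 2, 4 and 6, and MCM7 had -0.41, -0.70 and -0.57. For MCM4 they were -0.42, -0.48 and -0.32, and for MCM3 -0.55, -0.42 and -0.10, the last short of the threshold (adjusted p = 0.341). MCM5 did not pass at day 2 (-0.07, adjusted p = 0.52) and was lower at day 4 (-0.38) and day 6 (-0.36). MCM5 and MCM7 were lower at day 4 than at day 2 (-0.31 and -0.29), calls that were lost when libraries were scaled by their totals (adjusted p = 0.0605 and 0.0561). As levels per kilobase of exon in control, the subunits ranged from 17.7 CPM per kb (MCM5) to 69.0 (MCM4), with MCM6 at 41.4. The length merges all annotated exons of a gene (7338 bases for MCM5, 6973 for MCM4). These levels therefore depend on the annotation and are not ratios between the subunits' transcripts. Exons of MCM2 overlap TPRA1 and those of MCM7 overlap AP4M1 on the other strand, and the strand setting of the counting is not given in the sources used here.

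The kinase that activates the ring split in its course. DBF4 (7:87876216-87909541), the regulatory subunit, was at 72.8, 72.0 and 80.5 CPM in control, 31.4, 33.3 and 32.4 at day 2, 45.9, 38.3 and 38.2 at day 4, and 28.3, 27.3 and 31.7 at day 6. Treated and control libraries did not overlap, and day 4 lay above both other exposures. The log2 fold changes were -1.22 ± 0.094, -0.88 ± 0.092 and -1.37 ± 0.094 (adjusted p = 1.02e-10, 3.73e-08 and 1.36e-11), the last being the deepest fall among the 49 genes at day 6. DBF4 rose from day 2 to day 4 (0.33, adjusted p = 0.00755, or 0.0797 without day 4 library 1) and fell from day 4 to day 6 (-0.49, adjusted p = 0.00244). CDC7, the catalytic subunit, averaged 70.4 ± 2.5 CPM in control, 43.8 ± 2.1 at day 2, 63.7 ± 7.6 at day 4 and 70.7 ± 2.9 at day 6 (SD, n = 3). It fell at day 2 (-0.68, adjusted p = 7.08e-07), and its level at day 6 was above that at day 2 (0.69, adjusted p = 9.16e-07).

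GINS is a complex of 4 subunits, and they did not move together. GINS4 (8:41529206-41545046) was at 62.4, 59.4 and 58.9 CPM in control, 79.6, 73.7 and 80.0 at day 2, 71.5, 67.6 and 70.9 at day 4, and 94.0, 90.8 and 90.3 at day 6. Every treated library exceeded every control library. It rose by 0.37 ± 0.076 at day 2, 0.22 ± 0.076 at day 4 and 0.60 ± 0.076 at day 6 on the log2 scale (adjusted p = 0.000294, 0.0289 and 4.79e-07). The day 4 call was lost without control library 3 (0.0979), day 4 library 1 (0.0914) or day 4 library 3 (0.073), and with scaling by totals alone (0.0721), which put the day 2 rise at 0.24. Exons of GINS4 overlap 2 genes on the other strand over 1290 bases. GINS1 had log2 fold changes of -0.62, -0.24 and -0.14, and GINS2 of -0.50, -0.61 and -0.55, while those of GINS3 (-0.19, -0.08 and -0.19) did not pass at any exposure. CDC45, the remaining helicase component, was lower at day 2 (-0.45) and did not pass at day 4 (-0.20, adjusted p = 0.0696) or day 6 (-0.17, 0.119). MCM10, which helps activate the helicase, was lower at day 2 (-0.59) and day 4 (-0.45) and did not pass at day 6 (-0.21, adjusted p = 0.0501). Over the 14 helicase genes, 11, 10 and 7 were lower at days 2, 4 and 6, and 1, GINS4, was higher at each. Beside them, 23.4%, 17.7% and 21.7% of all tested genes were lower and 23.8%, 18.8% and 22% higher.

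**Figure D3:**
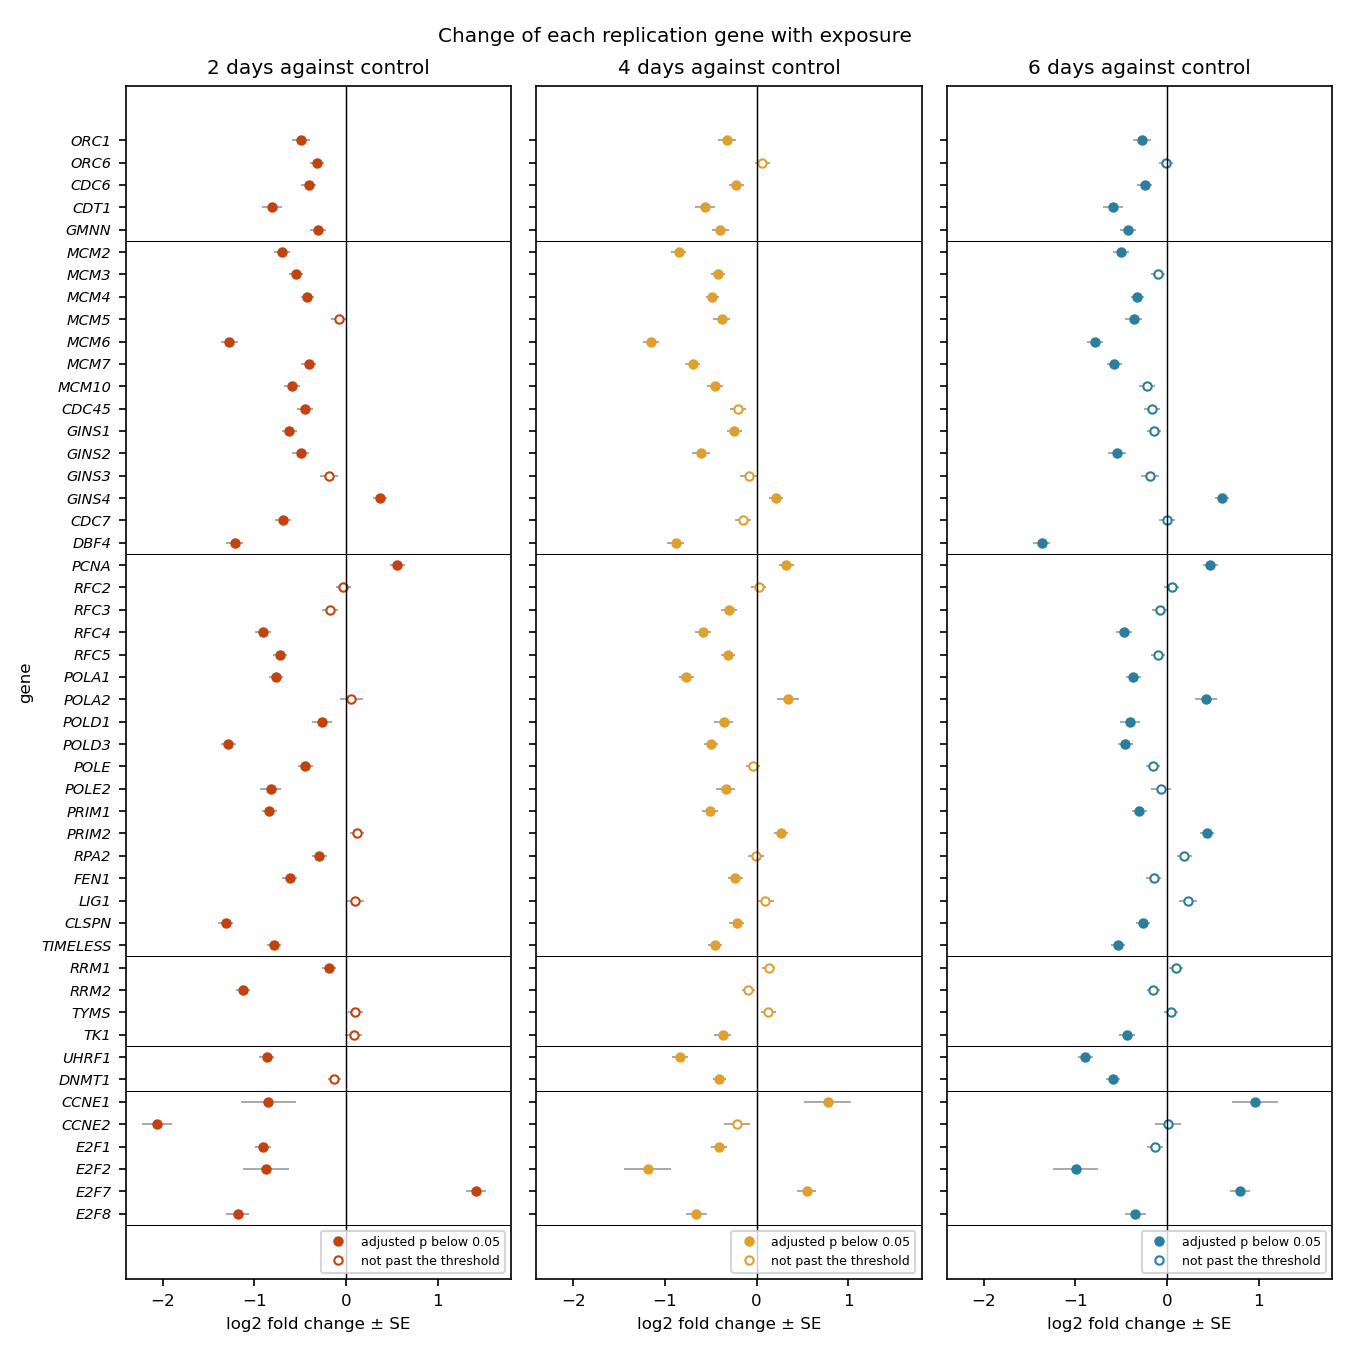
Log2 fold change against control with its SE for the 49 genes at day 2 (left), day 4 (middle) and day 6 (right). Filled points passed an adjusted p of 0.05 and open points did not. The filled points left of 0 number 36, 31 and 23.

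Of the 18 fork genes, 12 were lower at day 2, 11 at day 4 and 7 at day 6, and 1, 3 and 3 were higher. The background at these exposures was 23.4%, 17.7% and 21.7% lower and 23.8%, 18.8% and 22% higher. The share of fork genes called higher was thus no larger than that of all genes. CLSPN (1:35720218-35769967) encodes claspin, the fork mediator of the ATR-CHK1 checkpoint. It was at 209, 235 and 216 CPM in control, 99.99, 81.5 and 83.8 at day 2, 197, 185 and 186 at day 4, and 181, 186 and 184 at day 6. Day 2 stood far below the rest, while day 4 and day 6 lay just under the controls. Its log2 fold change was -1.31 ± 0.083 at day 2 (adjusted p = 2.28e-12), -0.22 at day 4 (0.0357) and -0.26 at day 6 (0.0107), and from day 2 to day 4 it rose by 1.09 ± 0.082 (adjusted p = 2.13e-10). The day 4 fall against control was lost without control library 2 (adjusted p = 0.108), control library 3 (0.0606), day 4 library 2 (0.108) or day 4 library 3 (0.104), and in 4 other settings, where it lay between 0.0507 and 0.0894.

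POLD3, an accessory subunit of DNA polymerase delta, was at 80.4, 80.8 and 80.9 CPM in control, 31.8, 33.0 and 34.5 at day 2, 61.2, 57.1 and 53.4 at day 4, and 60.9, 60.2 and 55.9 at day 6. The groups at day 4 and day 6 lay between day 2 and control without overlap with either. The log2 fold changes were -1.29 ± 0.083, -0.50 and -0.45 (adjusted p = 3.94e-12, 2.62e-05 and 5.96e-05). POLD1, the catalytic subunit of the same enzyme, had -0.26, -0.36 and -0.40. Its day 2 value (adjusted p = 0.0447) did not pass without any one of 8 libraries (control 2 or 3, day 2 library 1, 2 or 3, day 4 library 1 or 2, day 6 library 2), where it lay between 0.0507 and 0.186.

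PCNA (20:5114953-5126626), the sliding clamp, moved against most fork genes. It was at 335, 358 and 333 CPM in control, 549, 484 and 476 at day 2, 463, 433 and 390 at day 4, and 500, 488 and 437 at day 6. All treated libraries were above all controls, with the exposures overlapping each other except day 2 and day 4. The rises were 0.56 ± 0.082, 0.33 ± 0.082 and 0.47 ± 0.082 on the log2 scale (adjusted p = 4.27e-06, 0.00287 and 4.58e-05). The difference between day 4 and day 2 (-0.23, adjusted p = 0.0297) was lost without day 2 library 1 (0.158), day 4 library 2 (0.0521) or day 4 library 3 (0.176).

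The polymerase alpha-primase complex, which lays down primers, divided by subunit. PRIM2, the large primase subunit, was at 71.5, 69.3 and 67.2 CPM in control, 80.3, 69.8 and 75.6 at day 2, 83.5, 85.4 and 81.2 at day 4, and 88.0, 98.5 and 95.4 at day 6. Day 2 overlapped the controls, and day 4 and day 6 lay above them. Its log2 fold changes were 0.12 (adjusted p = 0.231), 0.27 (0.0101) and 0.44 ± 0.079 (7.15e-05).
POLA2, the regulatory subunit of polymerase alpha, was low, at 12.0, 11.6 and 10.2 CPM in control, 11.7, 11.4 and 12.1 at day 2, 15.8, 13.3 and 13.7 at day 4, and 16.2, 13.5 and 15.9 at day 6. It did not pass at day 2 (0.06, adjusted p = 0.741) and was higher at day 4 (0.34 ± 0.12, adjusted p = 0.0302) and day 6 (0.43 ± 0.12, adjusted p = 0.00532). The day 4 call was lost without control library 3 (0.137) or day 4 library 1 (0.151). The catalytic subunits took the other direction: POLA1 had -0.76, -0.77 and -0.37, and PRIM1 had -0.84, -0.51 and -0.30 at days 2, 4 and 6.

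The clamp loader and polymerase epsilon showed their lowest values mostly at day 2. Among the loader subunits, RFC4 had log2 fold changes of -0.90, -0.58 and -0.47, and RFC5 had -0.72, -0.31 and -0.10. RFC3 (-0.17, -0.30 and -0.07) was lower at day 4 alone among the exposures, a call that was lost without day 4 library 3 (adjusted p = 0.0729), and RFC2 (-0.03, 0.02 and 0.05) passed at none. POLE, the catalytic subunit of polymerase epsilon, had -0.44, -0.04 and -0.15, and POLE2 had -0.82, -0.34 and -0.07. TIMELESS, of the fork protection complex, had -0.79, -0.46 and -0.53. FEN1, which trims Okazaki fragments, had -0.61, -0.23 and -0.15. RPA2, a subunit of the single-strand binding protein, had -0.29, -0.01 and 0.19. LIG1, which seals the fragments, had 0.10, 0.10 and 0.23 and passed at no exposure (adjusted p = 0.435, 0.468 and 0.054).

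**Figure D4:**
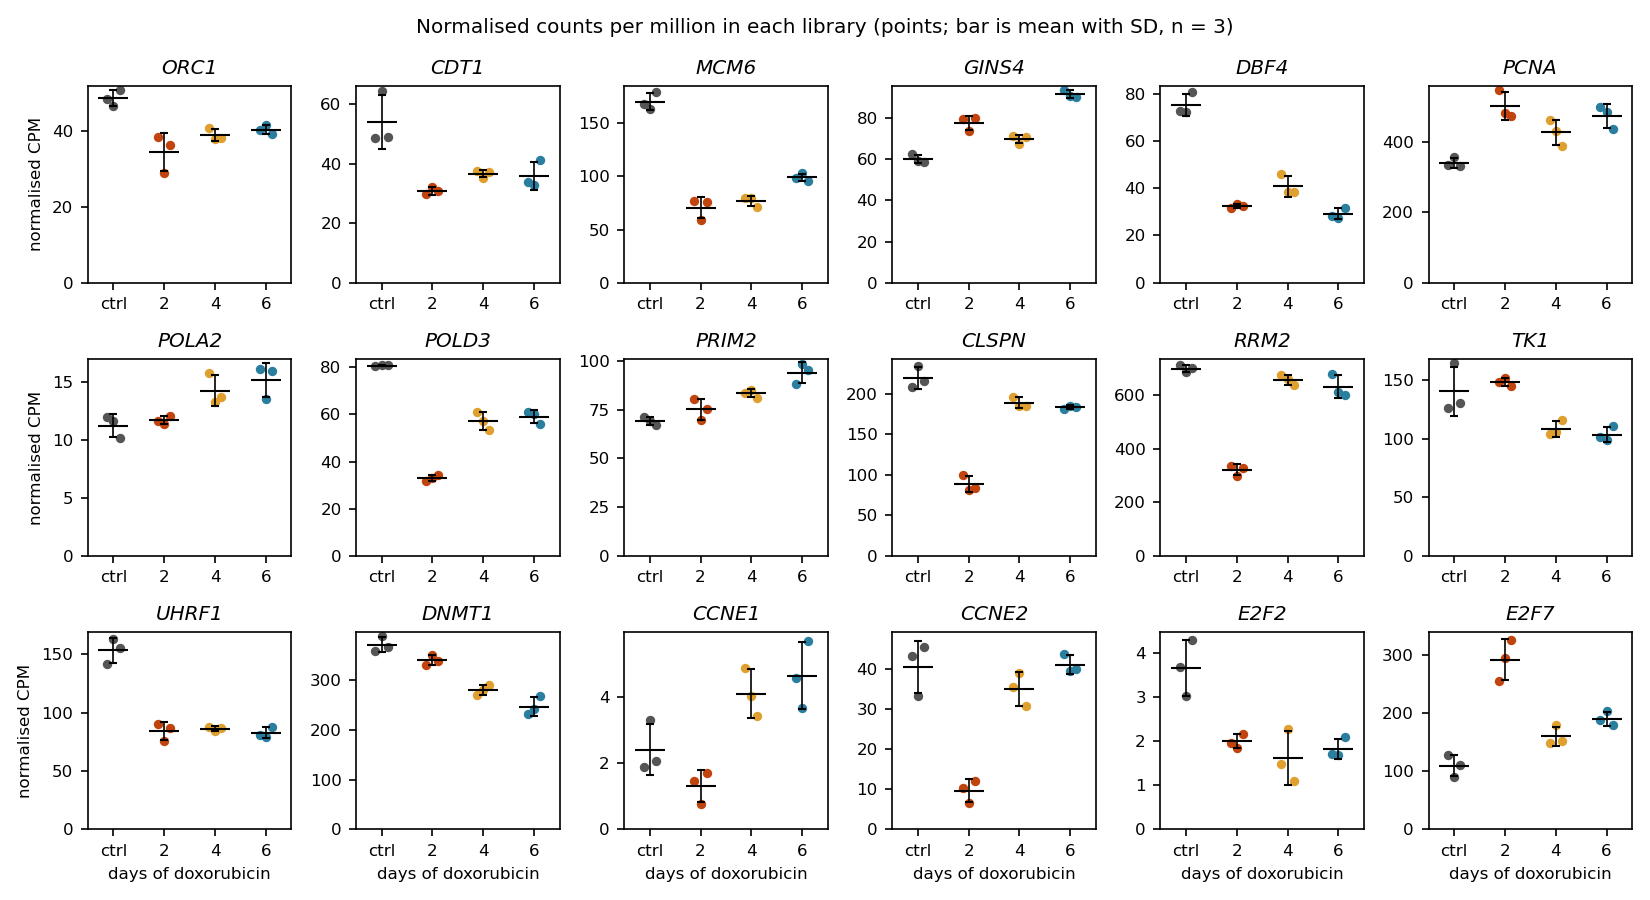
Normalised CPM of the 18 genes given library by library, one panel per gene, by days of doxorubicin. Points are libraries and the bar is the mean with its SD (n = 3). CCNE2, CLSPN and RRM2 are lowest at day 2, while UHRF1, MCM6 and DBF4 are low at all 3 exposures.

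In nucleotide supply, 2 of 4 genes fell at day 2, where 23.4% of all genes were lower. At day 4 and at day 6, 1 of 4 was lower, a share near the 17.7% and 21.7% of all genes that were lower then. RRM2 (2:10120698-10131419), the S phase subunit of ribonucleotide reductase, was at 712, 684 and 699 CPM in control, 337, 297 and 328 at day 2, 674, 660 and 637 at day 4, and 679, 612 and 600 at day 6. The day 2 libraries held less than any other library. The log2 fold change was -1.12 ± 0.075 at day 2 (adjusted p = 7.91e-12), and those at day 4 (-0.09, adjusted p = 0.38) and day 6 (-0.15, 0.111) did not pass although their libraries lay under the controls. From day 2 to day 4 it rose by 1.03 ± 0.075 (adjusted p = 1.17e-10). Its partner subunit RRM1 had -0.19, 0.13 and 0.10. The day 2 value of RRM1 (adjusted p = 0.0402) did not pass without any one of 7 libraries (control 2 or 3, day 2 library 1, 2 or 3, day 4 library 2, day 6 library 2), where it lay between 0.0527 and 0.163.

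TK1, the thymidine kinase of S phase, was at 127, 165 and 131 CPM in control, 149, 152 and 146 at day 2, 104, 106 and 116 at day 4, and 102, 98.8 and 111 at day 6. Day 2 lay within the control range, and day 4 and day 6 lay below every control. Its log2 fold changes were 0.08 (adjusted p = 0.475), -0.37 ± 0.09 (0.00211) and -0.44 ± 0.09 (0.000328). Control library 2 was the highest, and without it the day 4 value was -0.24. TYMS, thymidylate synthase, had 0.10, 0.13 and 0.05 and passed at no exposure, and its exons overlap ENOSF1 and TYMSOS on the other strand over 1150 bases.

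The maintenance pair of DNA methylation fell on different schedules. UHRF1 (19:4903080-4962154), which reads the hemimethylated DNA behind the fork, was at 142, 163 and 156 CPM in control, 89.9, 75.5 and 86.5 at day 2, 87.8, 83.8 and 86.6 at day 4, and 81.1, 79.0 and 87.8 at day 6. The treated groups overlapped each other and lay well below the controls, with log2 fold changes of -0.87 ± 0.083, -0.83 and -0.89 (adjusted p = 4.45e-09, 1.51e-08 and 3.25e-09). DNMT1, the methyltransferase it recruits, was at 360, 389 and 368 CPM in control, 332, 351 and 340 at day 2, 271, 281 and 291 at day 4, and 231, 243 and 268 at day 6. Here each exposure lay below the one before it, though the step from day 4 to day 6 (-0.18, adjusted p = 0.144) did not pass. The log2 fold changes were -0.13 (adjusted p = 0.163), -0.41 ± 0.074 (0.000116) and -0.59 ± 0.074 (5.4e-07), and day 6 was below day 2 by -0.46, or by -0.30 with scaling by totals alone.

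Cyclin E, the partner of CDK2 at the entry into S phase, gave the widest swings. CCNE2 (8:94879770-94896678) was at 43.4, 33.3 and 45.5 CPM in control, 10.3, 6.57 and 12.1 at day 2, 35.6, 39.0 and 30.7 at day 4, and 44.0, 39.7 and 40.0 at day 6. The day 2 libraries were far below all others, and day 4 and day 6 overlapped the controls. The log2 fold change was -2.06 ± 0.16 at day 2 (adjusted p = 1.39e-09), the deepest fall of any of the 49, then -0.22 (0.262) and 0.02 (0.938). From day 2 to day 4 it rose by 1.85 ± 0.16 and from day 2 to day 6 by 2.08 ± 0.16 (adjusted p = 1.98e-08 and 2.53e-09). Its exons overlap INTS8 and another gene on the other strand over 1633 bases.

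CCNE1 (19:29811898-29824308) was scarce, with 114, 68, 215 and 265 counts over the 3 libraries of control, day 2, day 4 and day 6. Its levels were 1.87, 3.28 and 2.05 CPM in control, 1.46, 0.753 and 1.68 at day 2, 4.86, 4.02 and 3.40 at day 4, and 4.57, 3.65 and 5.70 at day 6. Day 2 lay below the controls, and day 4 and day 6 above them. CCNE1 was lower at day 2 (-0.85 ± 0.30, adjusted p = 0.0222) and higher at day 4 (0.78 ± 0.26, 0.0196) and day 6 (0.96 ± 0.25, 0.00314), the only one of the 49 with calls in opposite directions against control. The day 2 call was lost without control library 2 (0.142) or day 2 library 2 (0.125), and the day 4 call without control library 1 (0.104), control library 3 (0.0769) or day 4 library 1 (0.103). From day 2 the rise was 1.63 ± 0.28 to day 4 and 1.81 ± 0.27 to day 6 (adjusted p = 5.51e-05 and 8.21e-06).

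E2F7 (12:77021247-77065580), a repressor of E2F targets, was the only one of the 49 to rise at least 2-fold against control. Of the 17320 tested genes, 1432 were called higher by at least 2-fold at day 2. E2F7 was at 127, 90.3 and 111 CPM in control, 256, 296 and 325 at day 2, 149, 179 and 152 at day 4, and 188, 203 and 179 at day 6. All treated libraries exceeded the controls, and day 2 exceeded every later one. The log2 rises were 1.41 ± 0.11, 0.55 ± 0.11 and 0.79 ± 0.11 (adjusted p = 3.54e-10, 0.000386 and 3.05e-06). E2F8, the related repressor, went the other way, at 19.2 ± 1.7 CPM in control, 8.51 ± 1.1 at day 2, 12.2 ± 0.67 at day 4 and 15.1 ± 0.13 at day 6 (SD, n = 3). Its log2 fold changes were -1.18 ± 0.12, -0.66 and -0.34, and the day 6 call (adjusted p = 0.0179) was lost without control library 1 (0.0649), control library 3 (0.0701) or day 6 library 2 (0.0504).

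Among the activators, E2F1 averaged 86.4 ± 3.9 CPM in control, 46.1 ± 3.5 at day 2, 65.0 ± 2.0 at day 4 and 78.8 ± 8.2 at day 6 (SD, n = 3). It was lower at day 2 (-0.90, adjusted p = 6.06e-09) and day 4 (-0.41) and did not pass at day 6 (-0.13, adjusted p = 0.226), with day 6 above day 2 by 0.77. E2F2 was scarce, at 3.69, 3.02 and 4.29 CPM in control, 1.97, 1.85 and 2.16 at day 2, 1.47, 2.28 and 1.10 at day 4, and 1.71, 1.69 and 2.08 at day 6. The treated groups overlapped each other and lay below the controls, by -0.88 ± 0.25, -1.19 ± 0.26 and -0.996 ± 0.25 on the log2 scale (adjusted p = 0.00533, 0.000652 and 0.00207).

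**Figure D5:**
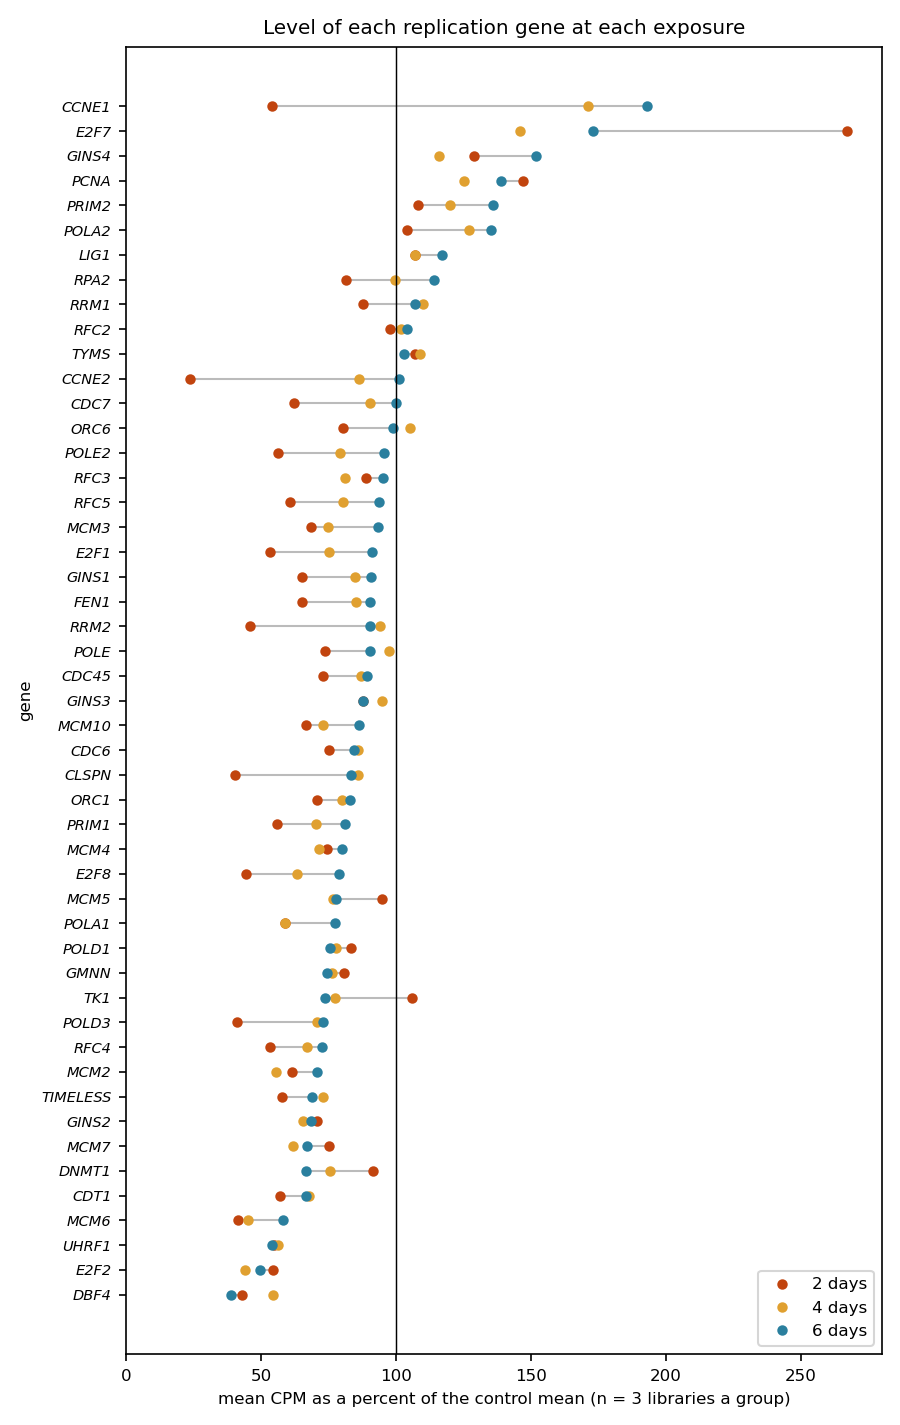
Mean CPM of each of the 49 genes at day 2, day 4 and day 6 as a percent of its control mean, in order of the day 6 level. The grey line joins day 2 and day 6, and the vertical line is the control level. CCNE2 went from 23.7% at day 2 to 101% at day 6, UHRF1 stayed at 54.7% and 53.9%, and DBF4 was lowest at day 6.

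A further 50 genes of replication and its control were listed for function, with earlier results of these data known, and all were tested. At day 2, 37 were lower and 4 higher (median -0.48), where 23.4% of all tested genes were lower and 23.8% higher. At day 4, 23 were lower and 6 higher (17.7% and 18.8% of all genes), and at day 6, 24 were lower and 7 higher (21.7% and 22% of all genes), with medians of -0.21 and -0.20. Day 6 lay above day 2 for 29 of them and below it for 7, beside 19.8% and 23% of all genes. The largest falls against control at any exposure were all at day 2. ASF1B, a histone chaperone, fell from 28.1, 33.2 and 30.7 CPM to 18.3, 12.3 and 12.9 (-1.07 ± 0.13, adjusted p = 1.36e-07). DONSON, which helps assemble the helicase, fell from 121, 116 and 116 CPM to 61.8, 56.3 and 59.3 (-0.99 ± 0.077, adjusted p = 1.19e-10). MCM8, of a separate helicase in repair, fell from 113, 107 and 104 CPM to 54.5, 54.7 and 55.3 (-0.98 ± 0.078, adjusted p = 2.14e-10).

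The largest rises in that list were those of CDKN1A, RRM2B and POLD4. CDKN1A, an inhibitor of the cyclin-CDK2 complex, went from 201, 227 and 165 CPM in control to 2200, 2561 and 2140 at day 2, 1404, 1527 and 1431 at day 4, and 1491, 1655 and 1781 at day 6. Its log2 rises were 3.54 ± 0.11, 2.88 ± 0.11 and 3.05 ± 0.11 (adjusted p = 3.93e-18, 1.69e-16 and 3.48e-17). RRM2B, the damage-inducible counterpart of RRM2, was at 63.9, 45.8 and 55.7 CPM in control, 197, 193 and 217 at day 2, 265, 297 and 206 at day 4, and 336, 361 and 307 at day 6, with log2 rises of 1.87, 2.21 and 2.60 ± 0.13. POLD4, a small subunit of polymerase delta, rose by 1.32, 1.30 and 1.27 ± 0.18 from a control mean of 4.25 CPM. Every treated library exceeded every control library for these 3 genes.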

How the data were processed

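The submitters sequenced messenger RNA of 12 AC16 libraries, prepared with a NEBNext Ultra kit per the labels' protocols, and deposited raw read counts per gene. The submitters' processing notes name STAR 2.7.8, HTSeq 0.13.5, fastp 0.23.2, Trimmomatic 0.38 and the build GRCh38.p13, without saying what each did. The strand setting and annotation release of the counting are not given in the sources used here. Exons of DNMT1, FEN1, POLA2, POLD1, POLD3, PRIM1 and RRM2 overlap other genes on the same strand. The effect of such overlaps on the counts was not tested.

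Identifiers were named through the NCBI and GENCODE 29 tables, and gene positions are those of GENCODE 29 on GRCh38. Counts were filtered with filterByExpr (minimum count 10, minimum total 15), scaled by TMM and fitted over all 12 libraries with 1 mean per group in edgeR 4.0.16 under R 4.3.3 (robust glmQLFit on 8 residual degrees of freedom, with a common biological coefficient of variation of 0.0887). Tests were glmQLFTest with Benjamini-Hochberg adjustment over all 17320 genes, called under 0.05 with no minimum fold. The SE is the log2 fold change divided by the square root of F. Levels are TMM-normalised CPM. The procedure was also run on simulated data in which few genes changed. Those data do not test the scaling where as many genes change as here.

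The 49 genes, the further list of 50 and the marker lists were chosen with earlier results of these data known, and support nothing on their own. Values per library are given for the 2 largest called falls and rises of each role, for every gene called higher and for any gene called in opposite directions, with the 3 largest falls and rises of the further list. Alternatives were RLE factors, library totals, no filter, 1 CPM in 3 libraries, DESeq2 1.42.0, a replicate block, a fit of the 2 groups alone and leaving out each library. One more, without control library 2 and day 2 library 3, whose mitochondrial share lay furthest from their groups, was chosen after seeing the data. Replicates were no copies of each other, with a chi-square per gene of 4.59 to 25.2 between them.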

Additional observations from a re-analysis of the deposited data

Results flagged for a closer look

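A set of genes differed between lengths of exposure by at least 2-fold in a direct test of one exposure against another, and these differences are given as values. At day 4 against day 2 these were 4 of the 49 genes, beside 506 higher and 744 lower of the 17320 tested genes. At day 6 against day 2 they were 3 of the 49, beside 855 higher and 805 lower of all tested genes. CCNE2 rose from day 2 to day 4 by 1.85 and from day 2 to day 6 by 2.08 on the log2 scale. CCNE1 rose by 1.63 and 1.81 over the same spans, from 68 counts at day 2. CLSPN rose by 1.09 and 1.05, and RRM2 rose by 1.03 from day 2 to day 4. Each passed an adjusted p of 0.05 in edgeR's quasi-likelihood test, and in each the 3 libraries of day 2 lay below the 3 libraries of the later exposure.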

How the results depend on the processing

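Of 294 pairs of a gene and a comparison, 169 passed the threshold, and none of these changed sign under any alternative run, while 42 pairs that did not pass (28 genes) changed sign under at least one. Scaling by library totals moved the median of all genes to -0.136 at day 2 against control and to 0.162 at day 6 against day 2, with the medians of the 49 genes at -0.62 and 0.446. Under it, 3 genes instead of 6 were lower at day 4 than at day 2, 14 instead of 5 were higher at day 6 than at day 4, and 5265 of all genes instead of 3437 were higher and 2538 instead of 3977 lower at day 6 than at day 2. Of all genes, 528 were higher and 646 lower at day 6 than at day 4, which became 1006 and 350 with library totals, 947 higher with only those groups fitted, and 259 to 833 higher and 307 to 1009 lower without single libraries. Higher at day 6 than at day 4 were 9 genes with only those groups fitted and 9 without control library 2 and day 2 library 3, a setting that also gave 5 instead of 3 higher at day 2 and, of all genes, 914 higher and 1113 lower at day 6 than at day 4.

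Leaving out single libraries gave, against control, 3 to 5 higher and 31 to 36 lower at day 2, 3 to 7 and 26 to 31 at day 4, and 6 to 8 and 20 to 24 at day 6. Day 2 reached 5 without control library 2, and day 4 dropped to 3 without control library 3 or day 4 library 1. Day 4 against day 2 gave 19 to 23 higher and 5 to 6 lower, day 6 against day 4 gave 2 to 6 and 1, and day 6 against day 2 gave 24 to 30 and 3 to 4.

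Deviations of same-numbered libraries from their group means had r from -0.171 to 0.096 over 18 pairs. For differently numbered libraries r was -0.217 to 0.17 over 36 pairs. Whether the numbers pair the samples is not stated in the labels. These values cannot settle it, since each group mean rests on 3 libraries. With the replicate number as a block, 3 genes were higher and 35 lower at day 2, 6 and 29 at day 4, and 6 and 23 at day 6. DESeq2 gave 3 and 35, 6 and 31, and 6 and 23.

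CCNE1 had 68 to 265 counts per group and E2F2 had 84 to 176, so the values of both genes rest on few reads.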
